A study of Mus musculus with 2 samples.

Results

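Deoxynucleotides, the building blocks of DNA, are made from ribonucleotides, and a cell that copies its genome must make them as it needs them. Ribonucleotide reductase, a complex of a large catalytic subunit and a small radical-bearing subunit, makes the deoxy form; thymidylate synthase then methylates dUMP to dTMP with a carbon unit carried by folate, and thymidine kinase salvages thymidine into the same pool. Red cell precursors divide several times before they lose the nucleus, and shortage of folate or vitamin B12 is known to produce megaloblastic anaemia, in which DNA synthesis lags behind cell growth. The genes described here are 9 enzymes of this supply line, chosen by name: the reductase subunits Rrm1 and Rrm2, the thymidylate enzymes Tyms and Tk1, the nucleotide hydrolases Dut and Dctpp1, and the folate enzymes Shmt1, Shmt2 and Mthfd1. All 9 were found among the 43346 Ensembl genes of the gene tables.

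The levels come from total RNA sequencing of erythroid progenitors labelled CFU-Ery, taken as primary cells from male C57BL/6J mice aged 5 to 6 weeks; the labels link a protocol for isolating progenitors from bone marrow and name no genetic change or treatment. There was 1 group of 2 libraries, biological replicates 1 and 2; the input was 1 ng of RNA with spike-in RNA added, and the labelled size range 150 to 400 nt. The labels give the replicates 1 shared donor record and separate biosamples, so the spread between them may be technical. No other cell type or condition was there to compare with, and an exact sign-flip test over 2 libraries cannot go below p = 0.5, so every level below is a description with its spread (SD, n = 2) and no test was run.

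Replicate 1 held 143491647 expected counts and replicate 2 held 110634458. Mitochondrial genes took 90.3% and 88.3% of them and the 21461 nuclear protein-coding genes 3.29% and 3.7%. The deposited level is TPM, in which reads are divided by transcript length and scaled over all of these, so 1 TPM corresponds to 43.1 and 37.0 TPM when nuclear protein-coding genes alone are scaled to sum to 1000000; the latter is called rescaled TPM. Of the markers of the labelled cell type, 10 of 10 erythroid genes reached 1 TPM in both libraries, led by the globin gene Hbb-bs, against 0 of 8 for stem and early progenitor cells (Procr had 0 counts in both libraries and Slamf1 in replicate 1) and 0 of 6 for megakaryocytes (Gp1bb had 0 counts in replicate 2). On the rescaled TPM 5 of the 8 stem and early progenitor markers and 5 of the 6 megakaryocyte markers reached 1 in both libraries. Of all nuclear protein-coding genes 12.6% reached 1 TPM in both libraries, and 9572 of 21461 did on the rescaled TPM. Granulocyte and monocyte markers were also present, with 9 of 12 at 1 TPM or more, none at 0, and a summed level of 548.8 TPM in replicate 1 and 742.8 TPM in replicate 2, led by S100a9. Of the macrophage markers 3 of 6 reached 1 TPM (Slc40a1 highest), of the B lymphoid markers 3 of 7 (Ighm highest) and of the T and NK lymphoid markers 1 of 7 (Nkg7 highest; Cd8a had 0 counts in both libraries and Ncr1 in replicate 1). The 9 enzymes are made by dividing cells of many lineages, so RNA of these genes from erythroid and from other cells cannot be told apart here, nor can fewer expressing cells and less RNA per cell.

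The sequences that bear on the levels are those of the transcripts to which reads were assigned. Most of the Tk1 level was carried by the short transcript Tk1-203 (724 nt), annotated as a retained intron. Of its bases, 636 (87.8%) also lie in the coding transcript Tk1-201, and only the first 88 do not. They are shown in capitals, with the first bases of the exon that follows in lower case (GRCm38, chr11:117816527-117816654, minus strand). The 88 bases, at chr11:117816567-117816654, are the end of the intron before the sixth exon and run directly into that exon.
Tk1-203: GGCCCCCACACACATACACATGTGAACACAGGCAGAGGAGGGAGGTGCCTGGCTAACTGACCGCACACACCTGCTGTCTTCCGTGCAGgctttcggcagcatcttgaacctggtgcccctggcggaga

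Dut makes a nuclear and a mitochondrial form of dUTPase in mammals from alternative first exons. The start of each of its main coding sequences is shown because the replicates differed in whether the longer one had any reads. Dut-201 encodes 162 codons before the stop and Dut-202 encodes 200. Bases from the start codon that the other transcript lacks are in capitals, and the shared exon follows in lower case (GRCm38, plus strand). The first stretch lies at chr2:125247748-125247793, and the second is spliced and spans chr2:125247272-125247793.
Dut-201: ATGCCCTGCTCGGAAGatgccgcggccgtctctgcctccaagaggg
Dut-202: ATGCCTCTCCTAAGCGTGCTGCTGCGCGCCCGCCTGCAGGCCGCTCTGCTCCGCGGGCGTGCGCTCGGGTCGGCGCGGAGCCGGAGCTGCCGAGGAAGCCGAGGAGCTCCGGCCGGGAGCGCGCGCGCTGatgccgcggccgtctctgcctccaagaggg

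The promoters of the reductase subunits Rrm1 and Rrm2 are shown because their proteins work as a complex. Whether the marked letters bear on the levels was not tested. The stretches come from RefSeq on GRCm38.p6, at chr7:102441554-102441693 (plus strand) for Rrm1 and chr12:24708100-24708239 (plus strand) for Rrm2. Capitals mark CCAAT, the letters read by the factor NF-Y, and in Rrm1 also TTCCCGC, part of a site for E2F factors, which drive genes of DNA synthesis. The window of Rrm2 also holds 1 such short E2F match, which lies outside the stretch printed.
Rrm1 promoter: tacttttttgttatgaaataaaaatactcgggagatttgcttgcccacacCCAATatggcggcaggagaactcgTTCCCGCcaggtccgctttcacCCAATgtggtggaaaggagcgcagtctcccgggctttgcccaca
Rrm2 promoter: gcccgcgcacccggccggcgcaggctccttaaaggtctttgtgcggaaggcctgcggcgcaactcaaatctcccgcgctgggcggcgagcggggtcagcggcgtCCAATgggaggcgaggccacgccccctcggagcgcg

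By their median the 9 genes stood above the median nuclear protein-coding gene, with a steep order among themselves. In both libraries 5 of 9 reached 1 TPM (Rrm2, Tk1, Rrm1, Tyms and Dut), where 12.6% of all nuclear protein-coding genes did (2701 of 21461). The 4 under 1 TPM were the hydrolase gene Dctpp1 and the 3 folate enzyme genes. The median level of the 9 genes was 1.66 TPM in replicate 1 and 2.22 TPM in replicate 2 (1.94 ± 0.396). The median nuclear protein-coding gene stood at 0.015 TPM, and 9033 of the 21461 had 0 counts in both libraries. Each list of other pathway genes described below also had a median above 0.015 TPM, lowest for folate uptake and cycle at 0.03 TPM. On the rescaled TPM all 9 reached 1, as did 9572 nuclear protein-coding genes, so how many of the 9 count as detected depends on the scale. Together the 9 genes held 0.171% ± 0.00844 of nuclear protein-coding TPM. Of their summed TPM, ribonucleotide reductase held 52.6% ± 4.94, the thymidylate pair Tyms and Tk1 39.4% ± 4.28, the hydrolases 5.49% ± 0.55 and the folate enzymes 2.54% ± 0.11. With protein-coding transcripts alone, an alternative chosen after the data were seen, the reductase held 70.9% ± 2.64, the thymidylate pair 17.7% ± 1.12, the hydrolases 7.82% ± 1.18 and the folate enzymes 3.61% ± 0.342.

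**Figure D1:**
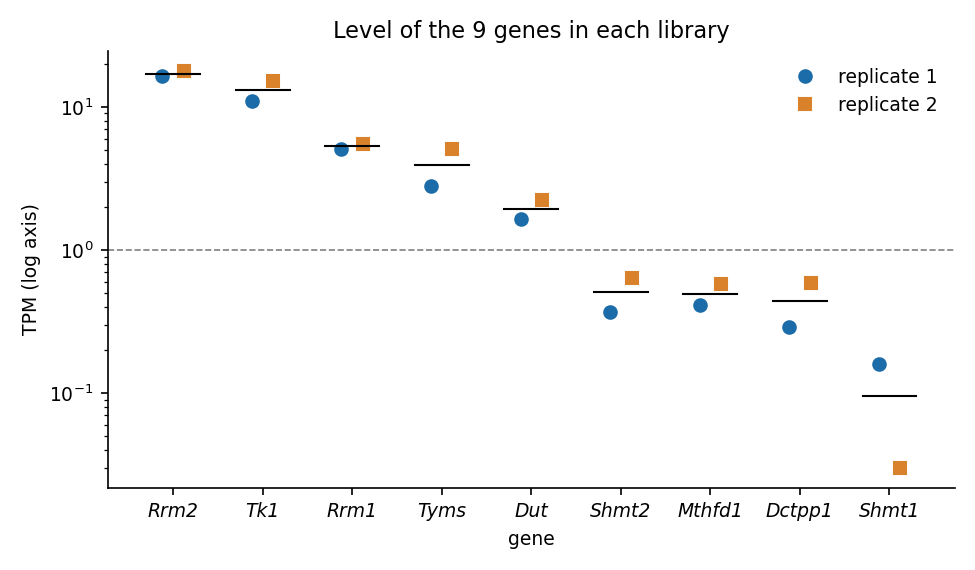
Level of each of the 9 genes in TPM (log axis) in replicate 1 (circles) and replicate 2 (squares), with the mean as a horizontal line and 1 TPM as a dashed line. Rrm2, Tk1, Rrm1, Tyms and Dut lie above 1 TPM in both libraries, Shmt2, Mthfd1 and Dctpp1 lie close together at 0.29 to 0.64 TPM, and Shmt1 is the lowest and the most spread.

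Ribonucleotide reductase was led by its small subunit. Rrm2 (ENSMUSG00000020649.7, chromosome 12, 24708241 to 24714146), the subunit that carries the tyrosyl radical and is limiting in S phase, stood at 16.36 TPM in replicate 1 and 17.93 TPM in replicate 2. These rest on 4190 and 3623 expected counts, and the rank by mean level was 170 among nuclear protein-coding genes (684.7 rescaled TPM). Rrm1 (ENSMUSG00000030978.9, chromosome 7, 102441695 to 102469771), the catalytic and regulatory subunit, stood at 5.09 and 5.55 TPM, with 2600 and 2215 counts, rank 599. Both genes were slightly higher in replicate 2 on the deposited scale. The proteins work as a complex, yet the RNA of the small subunit was 3.22-fold higher per length: the log2 ratio of Rrm2 to Rrm1 was 1.68 (95% counting interval 1.61 to 1.75) in replicate 1 and 1.69 (1.61 to 1.77) in replicate 2. In expected counts, not divided by length, the ratio was 0.7, since the Rrm1 transcript is longer.

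The alternative small subunit was low. Rrm2b, the p53-inducible form that serves cells outside S phase, stood at 0.12 and 0.14 TPM (73 and 66 counts), so the log2 ratio of Rrm2 to Rrm2b was 7.03 (6.7 to 7.39) and 6.96 (6.61 to 7.33), a 127.6-fold difference on average. The size of this ratio depends on the scale: its mean was 5.86 with the deposited posterior mean, 5.81 in expected counts and 4.0 with 1 TPM added to both genes, beside 7.0. The electron donors of the reductase were detected in part: thioredoxin (Txn1) stood at 5.24 and 6.71 TPM and glutaredoxin (Glrx) at 1.49 and 1.72 TPM, while thioredoxin reductase (Txnrd1) stood at 0.58 and 0.69 TPM. With Rrm2b, 2 of these 4 partner genes reached 1 TPM in both libraries, where 12.6% of all nuclear protein-coding genes did.

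Rrm2 RNA was almost all of the coding form. Rrm2-201 carried 91.78% of the TPM of the gene in replicate 1 and 93.21% in replicate 2, and the retained intron Rrm2-202 carried 6.91% and 6.03%. Rrm1 has 1 transcript in the tables. Of the 25-base words of Rrm2 transcripts, 16.9% also occur in other genes, most often in Gm48455, Gm11485 and Gm6593, whereas Rrm1 shares 0. The expected counts of Rrm2 were whole numbers in both libraries.

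**Figure D2:**
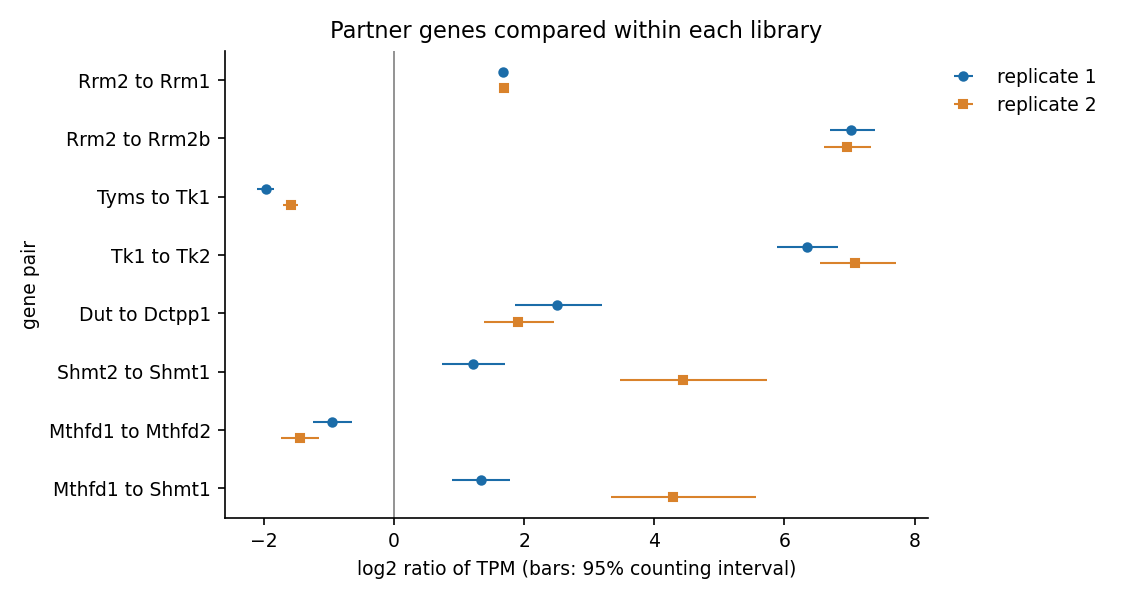
Log2 ratio of TPM for 8 gene pairs in replicate 1 (circles) and replicate 2 (squares), with bars for the 95% counting interval; the vertical line marks equal levels. Rrm2 to Rrm1 lies at 1.68 and 1.69, while Shmt2 to Shmt1 lies at 1.21 in replicate 1 and 4.44 in replicate 2 with intervals that do not meet.

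Thymidine salvage stood above thymidylate synthesis in RNA level. Tk1 (ENSMUSG00000025574.9, chromosome 11, 117815526 to 117826092), the cytosolic thymidine kinase of dividing cells, stood at 11.07 TPM in replicate 1 and 15.21 TPM in replicate 2, with 1306.76 and 1444 counts, rank 228. Tyms (ENSMUSG00000025747.8, chromosome 5, 30058202 to 30073617), thymidylate synthase, the target of fluorouracil, stood at 2.82 and 5.05 TPM, with 884 and 894 counts, rank 823. The log2 ratio of Tyms to Tk1 was -1.97 (-2.1 to -1.85) and -1.59 (-1.71 to -1.47), below 0 in both libraries. In expected counts it was -0.63.

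Most of the Tk1 TPM was not assigned to its coding transcript, and this changes its place. Of the 7 Tk1 transcripts 1 is protein-coding, Tk1-201, and it carried 28.0% of the gene's TPM in replicate 1 and 29.74% in replicate 2. Tk1-203, whose bases outside Tk1-201 are printed above, carried 50.93% and 52.07%. These shares were close between the libraries, but 636 of the 724 bases of Tk1-203 lie in Tk1-201 as well, so how reads in shared exons were divided was decided by the quantification and cannot be checked from the tables. Of the 5 detected genes 1 had less than 50% of its TPM in protein-coding transcripts in both libraries, where 14.8% of detected nuclear protein-coding genes did (400 of 2701). In replicate 2 alone 2 genes did, Tk1 and Tyms. Counting only protein-coding transcripts, Tk1 stood at 3.1 and 4.52 TPM, below Rrm1. In expected counts, not divided by length, Tk1-201 held 534.27 of 1306.76 in replicate 1 and 608.24 of 1444 in replicate 2. That was more than Tk1-203 held, at 438.17 and 478.55.

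Tyms differed between the libraries in which transcripts its reads were given to, with almost the same number of reads. The coding transcript Tyms-201 carried 57.57% in replicate 1 and 29.31% in replicate 2. Tyms-205, annotated as a target of nonsense-mediated decay, had 0 counts in replicate 1 and 120.13 counts in replicate 2, where it carried 35.02% of the gene's TPM. The retained introns Tyms-202 (16.1% and 17.74%) and Tyms-206 (15.97% and 10.55%) took a further part in both. The effective length behind the TPM of the gene was 2373.58 nt in replicate 1 and 1713.84 nt in replicate 2. In expected counts scaled by edgeR's TMM, which sets library size aside but not length, the log2 ratio of replicate 1 to replicate 2 was -0.23. In TPM it was -0.7 when centred on the median gene, which is the closer comparison, and -0.84 as deposited. By protein-coding transcripts alone the libraries stood close, at 1.62 and 1.48 TPM, below Dut. Of the 25-base words of Tyms, 15.1% occur in other genes, most often in the pseudogene Tyms-ps.

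**Figure D3:**
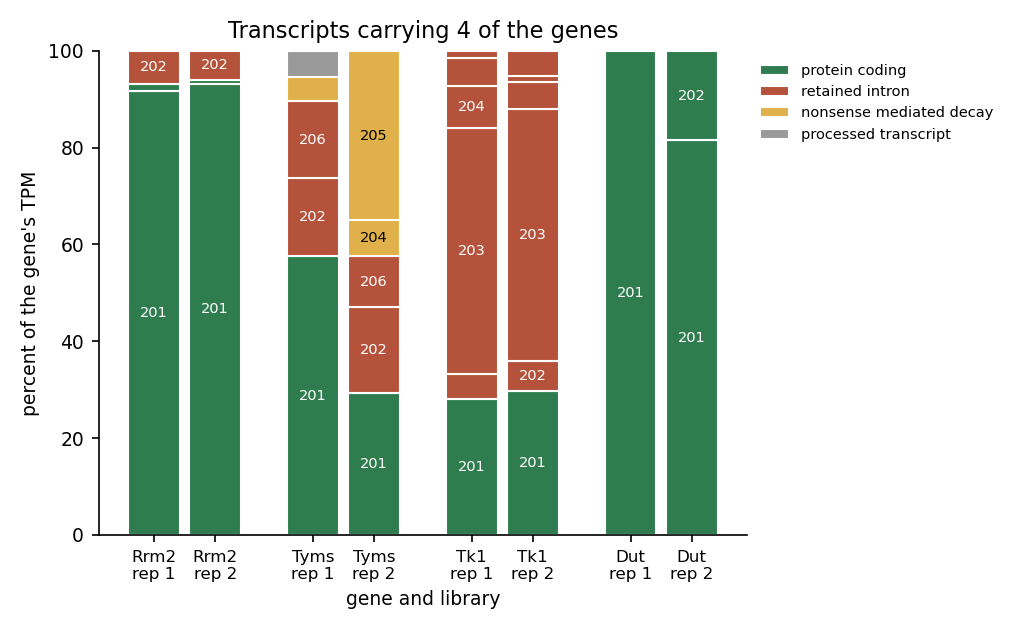
Share of each gene's TPM carried by each annotated transcript, in percent, for Rrm2, Tyms, Tk1 and Dut in both libraries, coloured by annotated type and labelled by transcript number where the share is over 6%. Rrm2-201 carries over 90% in both, Tk1-203 carries 50.93% and 52.07%, and Tyms-205 and Dut-202 appear in replicate 2 alone.

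Tk1 exceeded its mitochondrial counterpart in both libraries. The mitochondrial thymidine kinase gene Tk2, which supplies mitochondrial DNA independently of the cell cycle, stood at 0.14 and 0.11 TPM, and the log2 ratio of Tk1 to Tk2 was 6.34 (5.89 to 6.82) and 7.09 (6.54 to 7.71). Its mean was 6.72, beside 5.39 in expected counts and 3.64 with 1 TPM added to both genes.

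Of the other salvage and kinase genes 3 of 13 reached 1 TPM in both libraries, where 12.6% of all nuclear protein-coding genes did, and their median was 0.585 ± 0.00707 TPM. They were the deoxycytidine kinase gene Dck at 6.45 and 5.8 TPM, the thymidylate kinase gene Dtymk, which takes dTMP onward to dTDP, at 3.23 and 5.45 TPM, and the equilibrative nucleoside transporter gene Slc29a1 at 2.42 and 3.68 TPM. Dck stood above Tyms in both libraries. The second nucleoside transporter gene Slc29a2 and the cytidine deaminase gene Cda had 0 counts in both, which allows up to 0.0124 and 0.0451 TPM in replicate 2 at a floor of 3 counts.

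The pool-cleaning enzymes were represented by Dut far more than by Dctpp1. Dut (ENSMUSG00000027203.11, chromosome 2, 125247190 to 125258608) removes dUTP, which keeps uracil out of DNA and yields the dUMP that Tyms uses. It stood at 1.66 TPM in replicate 1 and 2.22 TPM in replicate 2, with 398 and 376 counts, rank 1749. Dctpp1 (ENSMUSG00000042462.4, chromosome 7, 127256959 to 127260709), a hydrolase of dCTP and its modified forms, stood at 0.29 and 0.59 TPM on 21 (95% Poisson interval 13.0 to 32.1) and 33 (22.7 to 46.3) counts. The log2 ratio of Dut to Dctpp1 was 2.5 (1.86 to 3.2) and 1.9 (1.38 to 2.46). In expected counts it was 3.88, and with 1 TPM added to both genes 1.03.

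Dut-201, the shorter coding form printed above, carried 100% of the Dut level in replicate 1 and 81.51% in replicate 2. Dut-202 had 0 and 37.36 counts (18.49% in replicate 2). The deposited posterior mean, which spreads reads over all annotated transcripts, gave Dut-202 7.76% and 19.6%.

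Of 10 other measured genes that clear or degrade nucleotides, 2 reached 1 TPM in both libraries, where 12.6% of all nuclear protein-coding genes did. The pyrimidine 5'-nucleotidase gene Nt5c3, whose human counterpart is known for a haemolytic anaemia when deficient, stood at 11.02 and 10.28 TPM, above Rrm1. The dNTP triphosphohydrolase gene Samhd1 stood at 2.67 and 2.28 TPM, above Dut. The inosine triphosphatase gene Itpa followed at 0.57 and 0.56 TPM, and the phosphorylase genes Tymp and Upp1 had 0 counts in both libraries.

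The folate enzymes of the set were all under 1 TPM. Mthfd1 (ENSMUSG00000021048.6, chromosome 12, 76255298 to 76319803), the cytosolic enzyme that interconverts folate-bound carbon units in 3 steps, stood at 0.41 TPM in replicate 1 and 0.58 TPM in replicate 2 (171 and 190 counts). Shmt2 (ENSMUSG00000025403.4, chromosome 10, 127517123 to 127522444), the mitochondrial serine hydroxymethyltransferase, stood at 0.37 and 0.64 TPM (107 and 144 counts). Both had enough reads to place them at ranks 4841 and 4787, and they changed order between the libraries. On the rescaled TPM they stood at 19.6 ± 2.67 and 19.8 ± 5.46.

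Shmt1 (ENSMUSG00000020534.10, chromosome 11, 60788104 to 60811718), the cytosolic form of the same enzyme, was the lowest of the 9. It stood at 0.16 TPM in replicate 1 on 58 counts (44.0 to 75.0) and 0.03 TPM in replicate 2 on 8.32 counts (3.45 to 15.8). The log2 ratio of Shmt2 to Shmt1 was 1.21 (0.74 to 1.7) and 4.44 (3.48 to 5.74): the mitochondrial form was higher in both libraries, by a margin that the libraries did not share. The ratio of Mthfd1 to Shmt1 was likewise 1.33 (0.89 to 1.79) and 4.29 (3.33 to 5.57). With the deposited posterior mean, in which Shmt1 stood at 0.3 and 0.21 TPM, the mean ratios were 0.96 and 0.95 in place of 2.83 and 2.81. Shmt1-201, the only Shmt1 transcript with counts, held 51.85% and 15.99% of that posterior mean, and transcripts with 0 counts held the rest.

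Shmt1 overlaps the gene Smcr8 on the opposite strand over 184 exonic bases. In replicate 2 its 8.32 counts and the 371.68 counts of Smcr8 sum to 380.0, whole to the 0.01 counts deposited, while in replicate 1 both were whole (58 and 267). Whether the counting used strand is not given in the sources used here, so reads of the overlap cannot be told apart. Tk1 overlaps Afmid over 83 exonic bases and Shmt2 overlaps Ndufa4l2 (0 counts) over 16, also on opposite strands. Of the 9 genes, 7 had whole expected counts in both libraries (within 0.005, with values deposited to 0.01); the exceptions were Tk1 in replicate 1 and Shmt1 in replicate 2.

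None of 18 other genes of folate uptake and the folate cycle reached 1 TPM in both libraries, where 12.6% of all nuclear protein-coding genes did. The highest was Mthfd2, the mitochondrial dehydrogenase partner of Shmt2, at 0.78 and 1.56 TPM. It exceeded Mthfd1, with a log2 ratio of Mthfd1 to Mthfd2 of -0.95 (-1.25 to -0.65) and -1.44 (-1.73 to -1.15). In expected counts the mean ratio was -0.21 in place of -1.19, and with 1 TPM added to both genes -0.52. The methionine synthase gene Mtr, the vitamin B12-dependent enzyme that joins the folate and methionine cycles, stood at 0.46 and 0.31 TPM. The folate receptor gene Folr1, the proton-coupled folate transporter gene Slc46a1, Aldh1l2 and Ftcd had 0 counts in both libraries. The mitochondrial folate carrier gene Slc25a32 had 0 and 28 counts and Mthfs 0 and 20.06, and both Mthfd2l and the folylpolyglutamate synthase gene Fpgs had 0 and 1. The reduced folate carrier gene Slc19a1 had 4 and 10 counts. On the rescaled TPM 8 of the 18 reached 1, where 9572 of 21461 nuclear protein-coding genes did.

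Serine and glycine supply, which feeds carbon units to folate and glycine to haem, was uneven. Of 11 genes 4 reached 1 TPM in both libraries, where 12.6% of all nuclear protein-coding genes did. The neutral amino acid transporter gene Slc1a5 stood at 14.48 and 16.5 TPM. The mitochondrial glycine carrier gene Slc25a38, needed for haem synthesis in erythroid cells, stood at 6.46 and 10.04 TPM, and the glycine transporter gene Slc6a9 at 4.34 and 5.15 TPM. The genes of serine synthesis were lower, as Phgdh at 0.16 and 0.19 TPM, Psat1 at 0.31 and 0.4 TPM and Psph at 0.64 and 0.36 TPM show. The glycine decarboxylase gene Gldc had 0 counts in both libraries, Amt had 0 and 1, and Slc1a4 had 0 and 18.

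In purine synthesis, upstream of the reductase, 2 of 15 genes reached 1 TPM in both libraries, a share near the 12.6% of all nuclear protein-coding genes: Paics at 2.83 and 2.91 TPM and the salvage gene Hprt at 1.96 and 3.3 TPM; Impdh2 stood at 1.78 and 0.8 TPM, and the lowest were Ppat and Adsl at 0.24 ± 0.0707 and 0.225 ± 0.106 TPM. In pyrimidine synthesis 0 of 7 did, with Ctps2 at 1.06 and 0.44 TPM, Cad at 0.46 and 0.65 TPM, and Umps and Dhodh lowest at 0.14 ± 0.0141 and 0.15 ± 0.0283 TPM. Over all 7 pathway lists 13 of 78 measured genes reached 1 TPM in both libraries, beside the 12.6% of all nuclear protein-coding genes. Of 20 S phase genes listed for comparison 17 did, with a median of 3.16 ± 0.145 TPM beside 1.94 ± 0.396 TPM for the 9 enzymes. These were led by the replication clamp gene Pcna (23.86 and 24.78 TPM), the histone mRNA-binding protein gene Slbp (12.11 and 10.62 TPM) and the replication licensing inhibitor gene Gmnn (6.88 and 10.46 TPM), with Fen1 (0.19 and 0.39 TPM) and Rpa2 (0.78 and 1.52 TPM) lowest. Rrm2 lay between Pcna and Slbp by mean level.

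**Figure D4:**
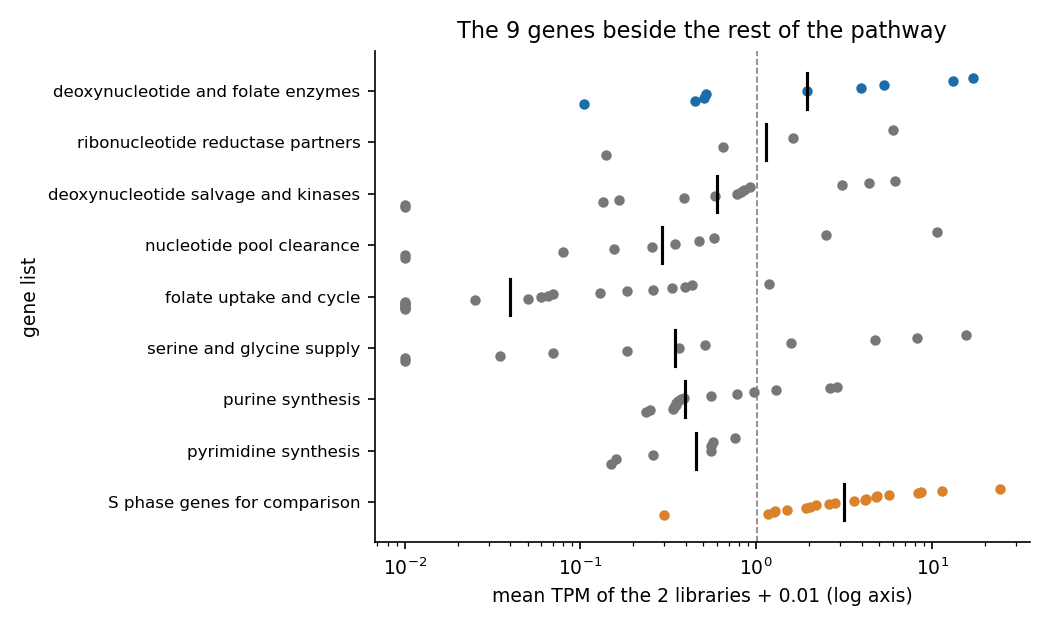
Mean TPM of the 2 libraries plus 0.01 (log axis) for each gene of the 9 enzymes (blue), the 7 other pathway lists (grey) and the S phase list (orange), with the list's median (mean of the library medians) as a black bar and 1 TPM as a dashed line. Genes at the left edge had a mean TPM of 0; the folate list has its median at 0.03 TPM and the S phase list at 3.16 TPM.

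In order of mean TPM the genes ran Rrm2, Tk1, Rrm1, Tyms, Dut, Shmt2, Mthfd1, Dctpp1 and Shmt1. Neighbours were called apart where their gap was larger than their summed SDs and both libraries gave the same order. Rrm2 and Tk1 were not apart (gap 4.0 TPM, summed SD 4.04), nor were Rrm1 and Tyms, Shmt2 and Mthfd1, or Mthfd1 and Dctpp1. Tk1 and Rrm1, Tyms and Dut (gap 1.99, summed SD 1.97), Dut and Shmt2, and Dctpp1 and Shmt1 were. When only protein-coding transcripts were counted the order began Rrm2, Rrm1, Tk1, Dut, Tyms, and the last 4 kept their places.

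Between the replicates the reductase subunits matched most closely. Ratios of replicate 1 to replicate 2 were centred on the median of 9078 nuclear protein-coding genes that averaged 20 or more counts, a log2 shift of -0.14. Rrm1 then differed by 0.02 (95% counting interval -0.07 to 0.1) and Rrm2 by 0.01 (-0.06 to 0.07). Tk1 (-0.32), Dut (-0.28), Mthfd1 (-0.37), Shmt2 (-0.64), Tyms (-0.7) and Dctpp1 (-0.87, -1.74 to -0.04) were higher in replicate 2. For Tyms the difference was -0.23 in expected counts scaled by edgeR's TMM. Of the 9 genes 1 was over 2-fold apart, Shmt1, 6.01-fold higher in replicate 1 (log2 2.59, 1.57 to 3.92), where 20.6% of all genes tested were (1872 of 9078, 955 of them higher in replicate 1). Shmt1 rests on 58 and 8.32 counts, so it passed the minimum mean of 20 through replicate 1. By the deposited posterior mean it stood at 0.3 and 0.21 TPM. Of these levels Shmt1-201, its only transcript with counts, held 51.85% and 15.99%. The rest was given to transcripts with 0 counts, so the posterior mean does not show that the replicates were closer. The overlap of Shmt1 with Smcr8 is described above. The median distance between replicates was 0.37 for the 9 genes and 0.42 for all genes on the log2 scale. Intervals treat reads as independent, which copies of 1 molecule made by PCR are not, so the intervals may be too narrow. They also leave out any error in how reads were divided among genes and transcripts.

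**Figure D5:**
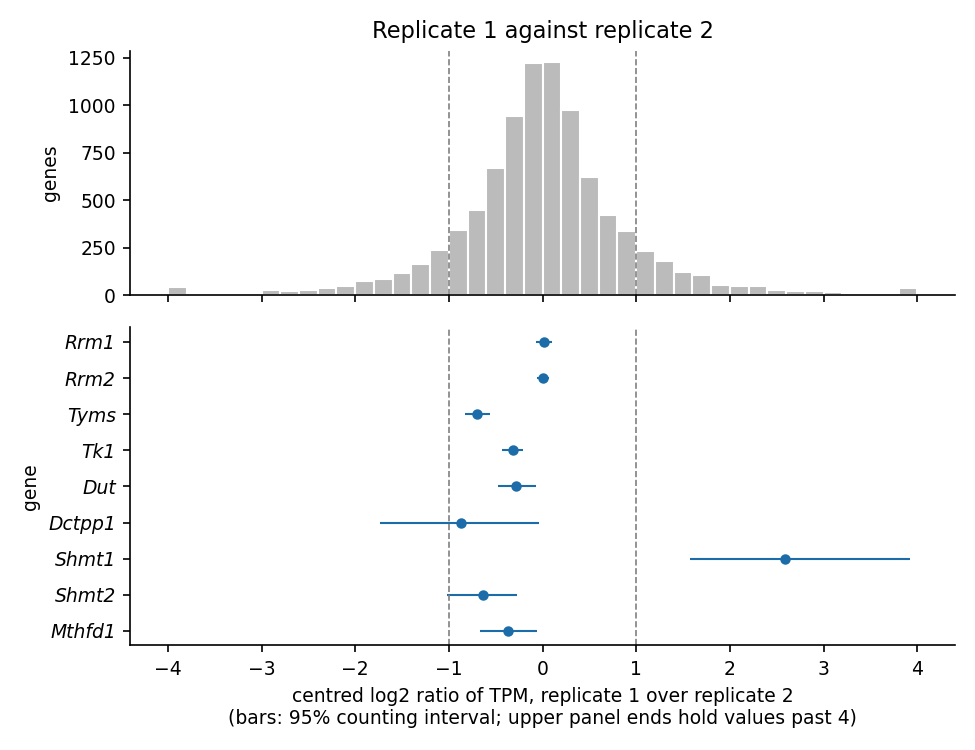
Centred log2 ratio of TPM, replicate 1 over replicate 2: upper panel, number of genes per bin for 9078 nuclear protein-coding genes; lower panel, each of the 9 genes with its 95% counting interval. Dashed lines mark 2-fold; Rrm1 and Rrm2 lie at 0.02 and 0.01, and Shmt1 alone of the 9 lies past a line, at 2.59.

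Promoter letters were counted in the RefSeq windows of 250 bases before to 50 after the start of each gene, on both strands, beside all 32851 windows of the table. CCAAT occurred in 5 of 9 (Rrm1 and Dctpp1 with 2 matches, Rrm2, Shmt1 and Mthfd1 with 1) and in 37.4% of all windows. The 8-letter E2F forms TTTGGCGC, TTTGCCGC, TTTCGCGC and TTTCCCGC occurred in 0 of 9 and in 2.26% of all. Without the first T, a form tried after the data were seen, they occurred in 4 of 9 (Rrm1, Rrm2, Shmt1 and Mthfd1) and in 9.57% of all; any 8-letter match also holds the shorter one. The KLF letters CCNCNCCC occurred in 7 of 9, all but Tk1 and Shmt2, and in 49.5% of all. The GATA letters AGATAA or TGATAA (18.6% of all) and TATAAA (13.6%) occurred in none of the 9. The RefSeq start and the outermost GENCODE start differ for some genes, by 453 bases for Shmt1, 325 for Dut and 78 for Tk1. The annotated starts of the coding transcripts Shmt1-201, Dut-201 and Tk1-201 lie inside these windows, and that of Dut-202 does not. Which start was in use was not measured, so a window may not hold it.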

How the data were processed

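Gene and transcript tables of 2 total RNA libraries were used. Each library was quantified separately on mm10 with GENCODE M4, per the text deposited with the tables. Which aligner and quantifier were run, and whether strand was used, is not given in the sources used here. Expected counts, as deposited, estimate the reads of each gene or transcript and can be fractional, per the file headers. The deposited TPM and FPKM values are scaled by length and to the library, per the file headers; FPKM was not used. The deposited isoform percent is a transcript's share of its gene's TPM, per the file headers. The deposited score-like bounds of a credibility interval were not used.

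TPM was recomputed from the deposited expected count and effective length where ratios needed more digits, and rescaled so that nuclear protein-coding genes sum to 1000000. Of 43346 Ensembl genes 42462 matched GENCODE M21 (GRCm38) by identifier without version; Pnp of the lists did not. M21 transcript lengths differ from the tables for some transcripts, such as Tyms-205 and Tyms-206. Promoters came from RefSeq on GRCm38.p6 and all 9 genes matched; protein sequences were not analysed here. Counting intervals are 95%, exact binomial for ratios and exact Poisson for counts, with 3 counts as the floor for a gene at 0. Expected counts were rounded for the size factors of edgeR 4.0.16 and DESeq2 1.42.0 (R 4.3.3); the rest ran in Python 3.11.15 with pandas 2.3.3, scipy 1.17.1, numpy 2.4.6 and matplotlib 3.10.9. The calculation of the count of genes over 2-fold apart was checked on simulated counts, which is a check of the code and not a test of these libraries.

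The genes and lists were chosen with earlier results of these data known. Named genes are the 9 enzymes, both genes of each pair, the 3 highest and 2 lowest of each list by mean TPM, any listed gene with 0 counts in a library, and the highest marker of each cell type; the text names those that describe each list, and 1 gene that the rule takes, with its pair, is not reported here. Other genes named for an overlap, a shared sequence or a place beside these (Afmid, Smcr8, Ndufa4l2, Txnrd1, Slc19a1, Psat1 and the like) were chosen after their values were seen. Alternatives were other minimum levels, the posterior mean, rescaled TPM, counts, a pseudocount, other size factors and leaving out a library.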

Additional observations from a re-analysis of the deposited data

How the results depend on the processing

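The order of the 9 genes was the same with the deposited posterior mean and on the rescaled TPM, and 7 of the 9 kept their place in each library alone. Because rescaling applies a single factor to each library, it cannot change the order within a library. The count of the 9 at or above the minimum was 3 at 5 TPM and 9 on the rescaled TPM, where their median was 76.9; at 0.5 TPM, with the posterior mean and in each library alone it stayed at 5. In expected counts, not divided by length, the log2 ratio was 0.7 for Rrm2 to Rrm1, -0.63 for Tyms to Tk1 and 3.88 for Dut to Dctpp1. With 1 TPM added it was 1.52 for Rrm2 to Rrm1, 1.03 for Dut to Dctpp1, 0.46 for Shmt2 to Shmt1 and 0.45 for Mthfd1 to Shmt1, since adding 1 shrinks the ratio of low genes. None of the ratios changed sign in expected counts or with the posterior mean. Adding 1 TPM to both genes cannot change the sign within a library. Without centring 2 of the 9 were over 2-fold apart between replicates, and with 1 TPM added 0 were; over all genes 31 were with 1 TPM added and 2850 without the minimum count, against 1872. The main transcript carried under 90% of the level in 2 of the 9 genes, and in 4 with the posterior mean. Of the 78 other pathway genes 23 reached 0.5 TPM and 5 reached 5 TPM. On the rescaled TPM 61 of the 78 reached 1, where 9572 of 21461 nuclear protein-coding genes did. Leaving out a replicate gave 16 to 17 of the 78 at 1 TPM, beside 13 in both libraries. The median of the 9 genes was then 1.66 to 2.22 TPM. No paired analysis was possible because there is 1 group. Depth limits Dctpp1 and Shmt1 most, whose levels rest on 21 and 33 and on 58 and 8.32 counts.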
